A study of Mus musculus with 4 samples.

Results

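The regulators described here are 10 genes that act when male germ cells pass from meiosis to the haploid stages: CREM, FHL5, TBPL1, GTF2A1L, RFX2, SOX30, SOX5, SPZ1, MYBL1 and KIF17, named as in the count tables. They are a list of names, drawn up from their known roles with earlier results of these data known, and all 10 were found among the 25824 gene symbols that the tables list. Single cell RNA-seq had been made from the testes of 2 WT mice (Ctcf wt/wt in the labels) and 2 Ctcf-cKO mice of the genotype Stra8-iCre-Ctcf f/Δ, all on the background written C56BL/6J and 15 weeks old. The iCre is driven by the Stra8 promoter, which is active in germ cells around the start of meiosis. It thus directs the deletion of the floxed allele (f) at germ cells and not at somatic cells of the testis. The other allele (Δ) is written as already deleted, and which cells carry it is not given in the sources used here. According to the methods, WT littermates could also carry floxed alleles, and filtrates from tubes of the Ctcf-cKO mouse were pooled. Each mouse gave 1 library, and the mice are called by their labels, replicate 1 and replicate 2 of WT and replicate 1 and replicate 3 of Ctcf-cKO.

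Spermatids build their own transcription machinery. CREM, a cAMP-responsive factor, switches on many post-meiotic genes with the help of the LIM-domain coactivator FHL5 (also ACT), and the kinesin motor KIF17 carries FHL5 out of the nucleus. TBPL1 (also TRF2) and GTF2A1L (also ALF) are germ cell relatives of the TATA-binding protein and of a TFIIA subunit, which bind each other. RFX2 acts on genes of cilia and flagella, SOX30 and SOX5 are HMG-box factors of meiotic and haploid cells, SPZ1 is a helix-loop-helix zipper protein of spermatids, and MYBL1 (also A-MYB) drives pachytene genes, among them those of piRNA production. CREM also yields repressor isoforms, and counts of 3′ ends do not tell isoforms apart.

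The promoters of 4 members are shown because the levels below turn on these genes: TBPL1 and GTF2A1L had the most similar pattern over mice and classes of any pair of the 10, KIF17 alone of the 8 members with a promoter searched has a full CREM site (TGACGTCA), and RFX2 has 4 of the searched motifs. Each runs 5′ to 3′ from 250 bases before to 50 bases after the RefSeq start (GRCm38.p6), with motif matches of either strand in capitals.
KIF17, chr4:138262001-138262300, forward strand: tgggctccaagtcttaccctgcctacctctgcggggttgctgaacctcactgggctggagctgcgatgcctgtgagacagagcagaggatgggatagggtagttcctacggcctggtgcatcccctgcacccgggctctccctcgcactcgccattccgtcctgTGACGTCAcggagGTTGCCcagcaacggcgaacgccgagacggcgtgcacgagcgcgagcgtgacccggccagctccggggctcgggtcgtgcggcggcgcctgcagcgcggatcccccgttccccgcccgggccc
RFX2, chr17:56830959-56831258, reverse strand: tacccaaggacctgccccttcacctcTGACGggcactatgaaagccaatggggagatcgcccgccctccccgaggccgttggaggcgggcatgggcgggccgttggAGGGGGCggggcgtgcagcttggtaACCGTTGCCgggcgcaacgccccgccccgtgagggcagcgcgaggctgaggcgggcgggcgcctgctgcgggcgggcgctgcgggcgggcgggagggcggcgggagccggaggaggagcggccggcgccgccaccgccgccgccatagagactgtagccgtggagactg
TBPL1, chr10:22731398-22731697, reverse strand: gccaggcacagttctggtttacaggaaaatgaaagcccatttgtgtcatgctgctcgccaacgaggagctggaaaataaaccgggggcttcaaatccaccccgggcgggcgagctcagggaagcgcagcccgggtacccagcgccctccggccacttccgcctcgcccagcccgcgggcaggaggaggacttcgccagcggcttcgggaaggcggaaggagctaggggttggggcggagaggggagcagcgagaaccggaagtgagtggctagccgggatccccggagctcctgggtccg
GTF2A1L, chr17:88668410-88668709, forward strand: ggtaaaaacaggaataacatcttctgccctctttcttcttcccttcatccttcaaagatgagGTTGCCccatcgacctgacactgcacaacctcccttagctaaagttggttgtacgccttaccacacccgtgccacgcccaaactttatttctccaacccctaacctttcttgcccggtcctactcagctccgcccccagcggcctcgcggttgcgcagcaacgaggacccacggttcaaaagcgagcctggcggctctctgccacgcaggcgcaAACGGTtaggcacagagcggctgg

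In the KIF17 promoter the capitals mark TGACGTCA and the RFX core GTTGCC. In RFX2 they mark the shorter CRE core TGACG, the CTCF core AGGGGGC and the MYB core ACCGTT, whose last 3 bases are also the first of an RFX core. The GTF2A1L promoter holds an RFX core and, on the other strand, a MYB core. TBPL1 has none of the 6 motifs in this window. The table gave 9 promoters of 8 of the genes, FHL5 having 2 starts, and those of CREM and MYBL1 were not used here. The KIF17 window lies inside the gene as GENCODE annotates it, which begins further upstream. RFX cores were in 5 of the 9, against 12.5% of 32851 promoters of the same length. The full CRE was in 1 of 9 (1.79% of all promoters), TGACG in 2 (20.8%, counting full sites), the MYB core in 2 (3.34%), the SOX core ACAATG in 2 (12.6%) and the CTCF core in 2 (10.6%). A match of letters is a description and not a binding site.

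In GRCm38, FHL5 lies at chr4:25199908-25242876 on the reverse strand, TBPL1 at chr10:22703879-22731938 (reverse), GTF2A1L at chr17:88668660-88715152 (forward), RFX2 at chr17:56775897-56831013 (reverse), SOX30 at chr11:45980310-46017994 (forward) and SOX5 at chr6:143828425-144781977 (reverse). SPZ1 lies at chr13:92574636-92576172 (reverse), MYBL1 at chr1:9667415-9700209 (reverse), KIF17 at chr4:138250435-138301967 (forward) and CREM on chromosome 18. The 3′ end of TBPL1 overlaps Slc2a12 and that of FHL5 overlaps the transcript Gm11906, both on the opposite strand. Since the use of strand in counting is not given in the sources used here, reads of these pairs cannot be told apart. SLC2A12 itself held 2, 3, 4 and 0 counts in the libraries, against 4568, 3360, 841 and 501 for TBPL1.

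The libraries held 6701235 (WT replicate 1), 4859455 (WT replicate 2), 2652665 (Ctcf-cKO replicate 1) and 1593546 counts (Ctcf-cKO replicate 3), so the Ctcf-cKO libraries were the shallower ones. The limits of 200 to 7000 genes and 10% mitochondrial counts left 4227, 2075, 327 and 293 barcodes. A further limit on the total, 3 times the median of the low plateau of each library, left 97, 242, 229 and 252 cells with median counts of 15039, 8247.5, 4649 and 2297.5. Only WT replicate 2 and Ctcf-cKO replicate 1 shared a cell barcode, a single one. CTCF held 110, 49, 4 and 7 counts over all barcodes, or 16.4, 10.1, 1.51 and 4.39 CPM, which are counts scaled to a library total of 1e+06, lower in both Ctcf-cKO libraries. In round spermatid-like cells it held 6, 6, 0 and 4 counts, or 10.1, 3.57, 0 and 34.1 CPM, highest in Ctcf-cKO replicate 3. These counts are too few to check the labels there, and which part of the gene the deletion removes is not given in the sources used here.

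Clusters were named from marker genes, with the 10 regulators left out of the genes that made the clusters. Of the cells, 62 were spermatocyte-like, led by PSMA8, DAZL and SYCP3, and 212 were round spermatid-like. A cluster of 107 cells was elongating spermatid-like, led by CYLC1. Another of 120 cells had 9 elongating spermatid markers but was led by HBB-BS, a haemoglobin gene of red blood cells, and was kept apart as the HBB-BS-led cluster. A cluster of 87 cells stayed unnamed, and 232 cells were somatic-like (Leydig, Sertoli, macrophage, fibroblast and a mixed cluster). The mice gave unequal numbers: 6, 29, 15 and 12 spermatocyte-like, 15, 146, 40 and 11 round and 34, 13, 31 and 29 elongating spermatid-like cells. Every set of 4 values here and below lists the WT mice first (1, then 2) and the Ctcf-cKO mice after them (1, then 3).

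Levels are counts summed over the cells of a class in a mouse, scaled to CPM by the total of that sum. They compare 1 gene between classes and mice, not genes with each other, since 3′ counts carry no common scale. Levels have to be read against RNA from outside the cells, so somatic-like cells and barcodes with under 200 genes, which hold mostly free RNA, were measured the same way. The barcodes with under 200 genes numbered 1367, 4392, 5592 and 6114 and held 104983, 590328, 1081040 and 748090 counts. Barcodes with more genes but a total below the limit for cells were in neither group, and WT replicate 1 had the most of them. Protamine PRM1, a gene of elongating spermatids, stood at 19912 to 73935 CPM in somatic-like cells, and the 20 elongating spermatid markers together at 25395, 79270, 74648 and 67893 CPM in spermatocyte-like cells, so RNA of elongating spermatids was found in every class. Because the classes come from the same cells, differences between stages are described and not tested.

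**Figure D1:**
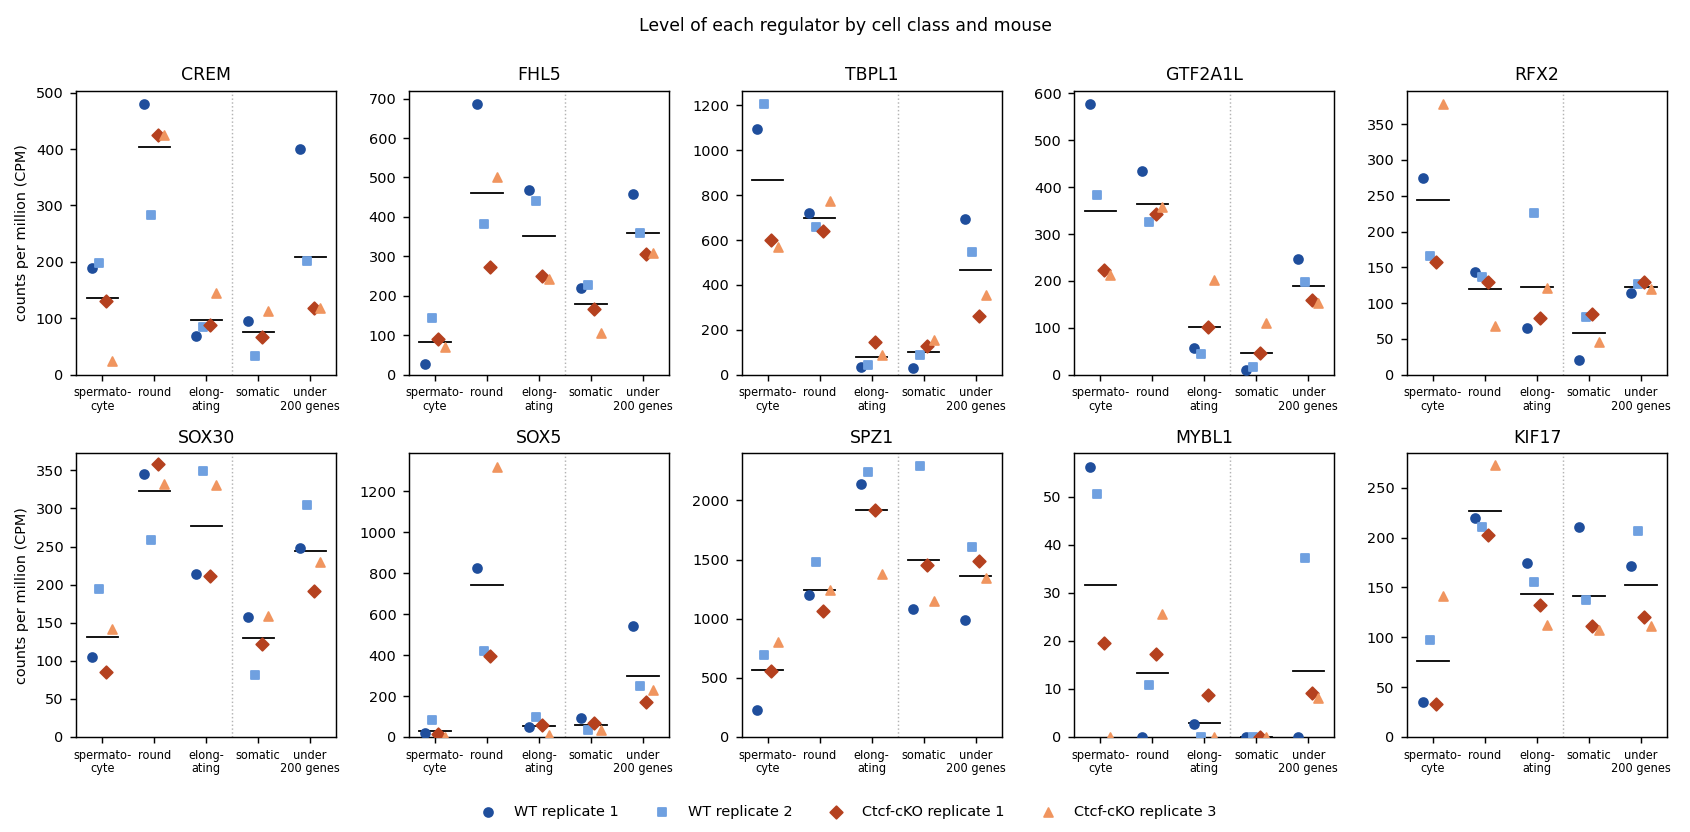
Level of each of the 10 regulators (vertical axis, CPM, starting at 0) in 5 groups of barcodes along the horizontal axis: spermatocyte-like, round and elongating spermatid-like cells, then, right of the dotted line, somatic-like cells and barcodes with under 200 genes. Each point is 1 mouse and each line the mean of 4 mice. CREM and SOX5 stand highest in round spermatid-like cells in all 4 mice, TBPL1 and GTF2A1L are high in spermatocyte-like and round cells and low in elongating cells, and SPZ1 is at 1082 to 2294 CPM in somatic-like cells.

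CREM and SOX5 had the clearest peak in round spermatid-like cells. CREM stood there at 480, 284, 425 and 426 CPM, a mean of 404 ± 83.8 (SD, n = 4 mice), against 190, 198, 131 and 23.6 CPM in spermatocyte-like cells. In elongating cells it had 68.3, 84.1, 88.1 and 145 CPM. The round level was 2.98 times that of spermatocyte-like and 4.19 times that of elongating cells, with no overlap between mice in either case, whereas spermatocyte-like and elongating levels overlapped. Somatic-like cells held 32.4 to 113 CPM of CREM, which overlaps the elongating range, so of the 3 germ cell levels only the round one lay above the somatic-like range in every mouse. Barcodes with under 200 genes held 400, 202, 118 and 118 CPM, below the round level in each mouse. They exceeded the spermatocyte-like level except in Ctcf-cKO replicate 1, and the elongating level except in Ctcf-cKO replicate 3.

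SOX5, known for a short testis form in spermatids, was at 824, 419, 397 and 1320 CPM in round cells. Spermatocyte-like cells had 21.1, 84.3, 13.1 and 0 CPM, the last from 0 of 42302 counts, which allows up to 70.9 CPM. Elongating cells had 49.9, 97.1, 57.3 and 8.06 CPM. The round mean was 25 times the spermatocyte-like and 13.9 times the elongating mean, the widest such gaps of the members with counts in every mouse's round cells. Somatic-like cells had 94.6, 32.4, 66.6 and 35.0 CPM, a range that overlaps those of spermatocyte-like and elongating cells, although in WT replicate 2 both of these lay above the somatic-like level. Barcodes with under 200 genes held 543, 251, 170 and 229 CPM, below the round level in each mouse. Intervals and limits of this kind cover counting error only.

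The round class joined 2 clusters, of 137 and 75 cells, and the smaller had the deeper cells and more round spermatid markers (17 against 13 of 20). SOX5 was higher in the smaller cluster in each of the 3 mice with cells in both, at 614 against 232 CPM in WT replicate 2, 422 against 370 in Ctcf-cKO replicate 1 and 1513 against 524 in Ctcf-cKO replicate 3. TBPL1 was also higher there in 3 of 3 mice, at 765 against 559, 878 against 379 and 910 against 218 CPM. SPZ1 was higher there in 1 of 3. WT replicate 1 had cells of the smaller cluster only, and Ctcf-cKO replicate 3 had 3 and 8 cells in the 2, so levels within the round class also follow this mix.

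KIF17, the kinesin, was highest of the 3 classes in round cells in 4 of 4 mice, at 220, 210, 203 and 272 CPM. Outside these classes it reached 519 CPM in the HBB-BS-led cluster of WT replicate 1 and 320 CPM in the unnamed cluster of WT replicate 2. In elongating cells it was at 175, 155, 132 and 113 CPM, 1.57 times lower on average without overlap, and in spermatocyte-like cells at 35.2, 96.9, 32.7 and 142. Somatic-like cells had 210, 138, 111 and 108 CPM, so the round level exceeded the somatic-like one in each mouse but the ranges overlapped. Barcodes with under 200 genes held 171, 207, 120 and 111 CPM, below the round level in each mouse and close to the elongating level, which they exceeded in WT replicate 2.

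FHL5, the coactivator of CREM, was lowest of the 3 classes in spermatocyte-like cells in 4 of 4 mice. It was at 28.1, 143, 91.6 and 70.9 CPM in spermatocyte-like cells and at 686, 381, 272 and 502 in round cells, 5.51 times as much on average without overlap. It was at 469, 440, 251 and 242 CPM in elongating cells. Round and elongating ranges overlapped, while CREM was 4.19 times lower in elongating cells. Both classes stood above somatic-like cells, at 105 to 227 CPM, in all mice. Barcodes with under 200 genes, however, held 457, 359, 307 and 309 CPM of FHL5, more than the elongating cells of both Ctcf-cKO mice and the round cells of Ctcf-cKO replicate 1.

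SOX30 was also lowest of the 3 classes in spermatocyte-like cells in 4 of 4 mice. It was at 105, 194, 85.1 and 142 CPM in spermatocyte-like cells, 345, 258, 358 and 332 in round cells and 214, 349, 212 and 330 in elongating cells. The round mean was 2.46 times the spermatocyte-like mean without overlap, and round and elongating ranges overlapped. The spermatocyte-like range overlapped the somatic-like one, at 81.1 to 159 CPM, and was above it in WT replicate 2. Barcodes with under 200 genes held 248, 305, 191 and 230 CPM, which overlaps the round and elongating ranges and exceeds the elongating level in WT replicate 1 and the round level in WT replicate 2.

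TBPL1 and GTF2A1L, the binding partners, were present from spermatocyte-like to round cells and then low. TBPL1 had 1097, 1205, 602 and 567 CPM in spermatocyte-like cells, 721, 660, 639 and 775 in round cells and 34.2, 45.3, 145 and 88.6 in elongating cells. The first 2 ranges overlapped, and the elongating mean was 8.92 times below the round mean without overlap. GTF2A1L had 577, 383, 222 and 213 CPM in spermatocyte-like, 434, 326, 343 and 358 in round and 56.5, 45.3, 101 and 201 in elongating cells, a round mean 3.61 times the elongating one. Somatic-like cells held 31.5 to 153 CPM of TBPL1 and 10.5 to 110 of GTF2A1L, both overlapping the elongating levels. Barcodes with under 200 genes held 262 to 695 and 154 to 248 CPM, below the spermatocyte-like and round levels of the same mouse. They exceeded the elongating levels of each mouse except for GTF2A1L in Ctcf-cKO replicate 3.

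RFX2 and MYBL1 were highest in spermatocyte-like cells in 3 of 4 mice. RFX2 had 274, 166, 157 and 378 CPM there and 144, 136, 130 and 68.1 in round cells, 2.04 times less without overlap. Its elongating levels of 65.7, 226, 79.3 and 121 CPM overlapped both, and barcodes with under 200 genes held 114 to 130 CPM, within the range of round cells. MYBL1 was scarce: its spermatocyte-like sums held 8, 24, 3 and 0 counts, or 56.2, 50.6, 19.6 and 0 CPM. It had 0, 18, 8 and 3 counts in round and 2, 0, 2 and 0 in elongating cells. No somatic-like cell held a count of MYBL1, which allows up to 6.66 CPM in Ctcf-cKO replicate 1 and 31.5 in WT replicate 1, while barcodes with under 200 genes held 0, 22, 10 and 6 counts, or 0, 37.3, 9.25 and 8.02 CPM.

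SPZ1 was at 225, 691, 556 and 804 CPM in spermatocyte-like, 1199, 1478, 1064 and 1243 in round and 2142, 2239, 1917 and 1378 in elongating cells. Elongating cells were the highest of the 3 classes in 4 of 4 mice. Somatic-like cells, however, held 1082, 2294, 1451 and 1146 CPM, above the spermatocyte-like level in each mouse, and barcodes with under 200 genes 991 to 1604. Its somatic-like mean was 1.20 times its round mean, whereas CREM, TBPL1, GTF2A1L and SOX5 were 5.27 to 12.95 times higher in round than in somatic-like cells.

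The share of cells with at least 1 count was taken after each cell was thinned to 1500 counts, cells below that being left out, and is given for CREM, SOX5 and SPZ1 in the 2 mice with the most round spermatid-like cells. The shares did not follow the levels for every member, since FHL5 was found in 40% of round and 44.1% of elongating cells of WT replicate 1 at levels of 686 and 469 CPM. In Ctcf-cKO replicate 1, 45.0% of 40 round spermatid-like cells held CREM and 27.5% held SOX5, against 6.41% and 7.69% of 78 somatic-like cells. In WT replicate 2 the values were 24.7% and 30.8% of 146 round cells and 6.25% for either gene in 16 somatic-like cells. CREM was also found in 20.7% of 29 spermatocyte-like and 23.1% of 13 elongating cells of WT replicate 2, close to its round share. In Ctcf-cKO replicate 1 these shares of CREM were 21.4 and 9.68%. Those of SOX5 were 6.90 and 15.4% in WT replicate 2 and 0 and 3.23% in Ctcf-cKO replicate 1. Without thinning, the round shares of CREM and SOX5 were 67.5% and 65% in Ctcf-cKO replicate 1 and 63.7% and 61.6% in WT replicate 2. Median depths were 9002 and 8882.5 counts in round and 4460.5 and 7258.5 in somatic-like cells. SPZ1 was found in 70.0% and 87.0% of the thinned round cells but also in 53.8% and 81.2% of the somatic-like ones.

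Over 24 sums (4 mice by 6 classes), Pearson's r of log2(CPM + 1) was computed between the members and with 6169 genes, as a description, since the sums share libraries and depth. TBPL1 and GTF2A1L were the closest pair of members, at r = 0.86. FHL5 and SOX30 followed at 0.62, GTF2A1L and CREM and GTF2A1L and RFX2 at 0.60 each, and CREM and SOX5 at 0.59. SPZ1 and TBPL1 had an r of -0.61, the lowest of the pairs.

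**Figure D2:**
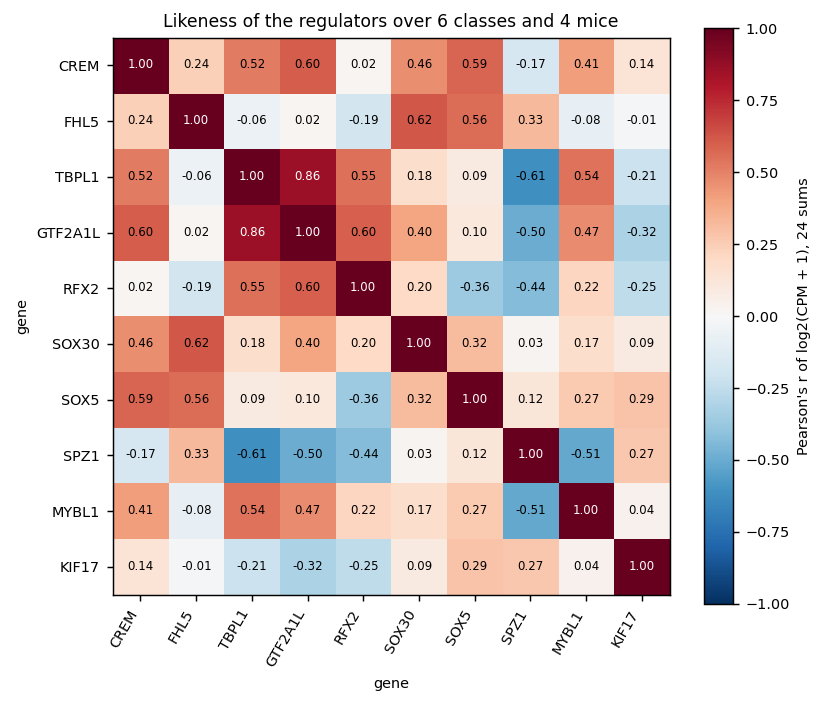
Pearson's r of log2(CPM + 1) between each pair of the 10 regulators (rows and columns) over 24 sums, on a colour scale from -1 to 1. TBPL1 and GTF2A1L form the pair with the highest value, 0.86, and SPZ1 and TBPL1 that with the lowest, -0.61.

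Of all genes with a mean of at least 20 CPM, those most like TBPL1 were MZT2 (r = 0.93), HSPA2, a chaperone of spermatocytes (0.93), and CFAP36 (0.93). GTF2A1L was nearest CCL27A (0.88), TBPL1 itself and TEX36 (0.85). CREM was nearest LGALS8 (0.84), ODF3L1 (0.83) and CDKN3 (0.83), FHL5 nearest SQOR (0.90), SCAND1 (0.90) and CYPT1 (0.85), and SOX5 nearest 1700020L24RIK (0.90), ARRDC5 (0.88) and SPATA9 (0.87). SPZ1 was nearest ODF1, an outer dense fibre protein of the sperm tail (0.94), LRRC51 (0.94) and CLPB (0.94). KIF17 was nearest 4930406D18RIK (0.89), ACSL1 (0.88) and NFKBIB (0.88), and SOX30 nearest 1700016K19RIK (0.79), AKAP3 (0.78) and IP6K1 (0.78). The nearest genes were less close for MYBL1 (PFKM at 0.75, DAW1 at 0.74 and HECTD4 at 0.72) and for RFX2 (ASRGL1 at 0.74, WDR62 at 0.72 and, at 0.71, a row whose symbol had become a date).

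The genotypes were compared within each class on the sums per mouse, to ask whether these regulators change when Ctcf is lost. No member passed an adjusted p of 0.05 in any of the 4 classes (edgeR quasi-likelihood F test, Benjamini-Hochberg over all genes tested), nor by DESeq2. At an unadjusted p under 0.05 there were 0, 0, 3 and 0 members in spermatocyte-like, round, elongating and HBB-BS-led cells, beside 8.52, 3.34, 19.1 and 14.1% of all genes tested. DESeq2 called 2.28, 0.078, 6.07 and 5.18% of all genes. With 2 mice per genotype a missed threshold does not show that levels were alike, and an exact permutation test of 2 against 2 mice could not go below 0.333. With all 4 mice, MYBL1 had too few counts to be tested in any class, and SOX5 in spermatocyte-like cells and the HBB-BS-led cluster.

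Markers of other cells differed between the genotypes in the same sums. The 14 Leydig markers together reached 49.2 and 156 CPM in the WT and 9251 and 5886 CPM in the Ctcf-cKO spermatocyte-like sums, with 12, 6, 0 and 1 of the 14 at 0. CYP17A1, the Leydig enzyme of androgen synthesis, stood at 0, 2.11, 1806 and 662 CPM there. Leydig markers reached 43.9, 225, 2230 and 536 CPM in round and 42, 77.6, 2622 and 2328 in elongating cells. Red blood cell markers reached 0, 0, 595 and 260 CPM in spermatocyte-like, 2.63, 0, 2437 and 1039 in elongating cells and 0, 0, 20764 and 2006 in the HBB-BS-led cluster. Markers of Sertoli cells and macrophages were also higher in both Ctcf-cKO mice in these 4 classes. The somatic-like class itself held 11 and 16 WT against 86 and 119 Ctcf-cKO cells. The part of this RNA in the differences given here was not tested.

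**Figure D3:**
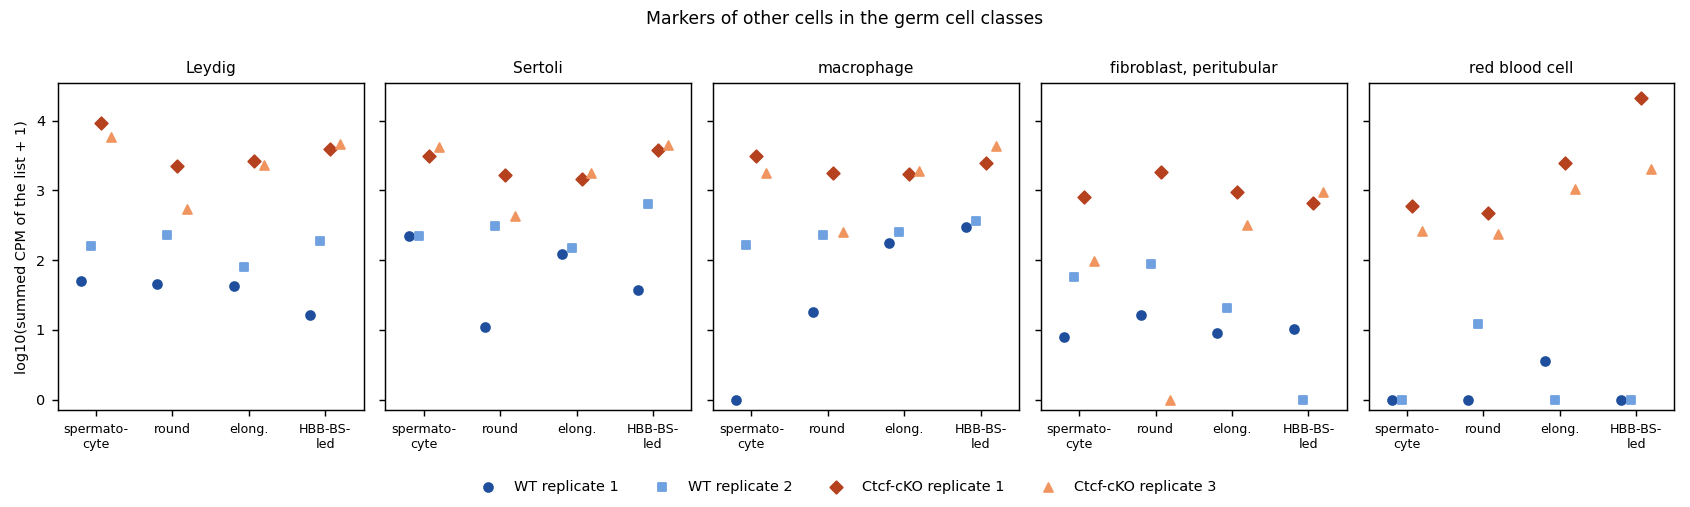
Summed level of 5 marker lists, as log10(CPM + 1), in the spermatocyte-like, round, elongating and HBB-BS-led classes, with 1 point per mouse. Leydig, Sertoli, macrophage and red blood cell markers stand higher in both Ctcf-cKO mice than in both WT mice in each class, from 42 and 77.6 CPM in WT to 2622 and 2328 CPM in Ctcf-cKO for Leydig markers of elongating cells.

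In the spermatocyte-like sums, CREM, TBPL1 and GTF2A1L were lower in both Ctcf-cKO mice than in both WT mice. That was 3 of the 8 members tested, while 24.4% of all 3721 genes tested lay this way, and none of the 8 lay above (17.3% of all genes). TBPL1 was at 1097 and 1205 CPM in WT and 602 and 567 in Ctcf-cKO, a log2 fold change of -0.99 (SE 0.44, adjusted p = 0.595 by edgeR). GTF2A1L was at 577 and 383 against 222 and 213 CPM, a log2 fold change of -1.13 (SE 0.54, adjusted p = 0.635). CREM was at 190 and 198 against 131 and 23.6 CPM, the last from 1 count, and the log2 fold change of -1.08 (SE 0.82, adjusted p = 0.843) ranged from -3.37 without Ctcf-cKO replicate 1 to -0.43 without Ctcf-cKO replicate 3. A share of free RNA, limited to 90%, was estimated from markers of somatic and red blood cells relative to barcodes with under 200 genes. RNA of such cells that was not free also counts in this share. It was 38.4 and 42.8% in the WT sums and at that limit of 90% in both Ctcf-cKO sums. In elongating cells of WT replicate 1 it was 50.2%. That was too high for TBPL1, at 34.2 CPM there and 695 CPM in barcodes with under 200 genes. The difference in GTF2A1L was -1.89 and that in TBPL1 -1.14 once the estimate was subtracted, and -1.33 and -1.14 at equal depth. CREM had too few counts to be tested under either. Markers of spermatocytes were also lower in these sums, at 5646 and 3763 against 3245 and 2317 CPM. SYCP3, of the synaptonemal complex, stood at 682, 529, 412 and 23.6 CPM, and SYCP1 at 752, 289, 249 and 0 CPM. Of the 19 spermatocyte markers found, 1, 0, 0 and 6 were at 0. In Ctcf-cKO replicate 3 these markers together were lower than in its round cells (2520 CPM). The class name is therefore less sure for the 12 cells of that mouse.

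The other 5 members tested overlapped between genotypes in spermatocyte-like cells, with log2 fold changes from -0.53 for SOX30 to 0.48 for SPZ1. SOX5 and MYBL1, below the filter, held at most 3 counts in each Ctcf-cKO sum. Both had 0 of 42302 counts in Ctcf-cKO replicate 3, which allows up to 70.9 CPM, so their order between the genotypes is not settled. Over the 8 members the median log2 fold change was -0.33, beside -0.15 over all genes tested, of which 29 (0.779%) were called, every one higher in Ctcf-cKO.

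In round spermatid-like cells, where CREM, SOX5, KIF17, FHL5 and SOX30 were highest, the genotypes overlapped for 8 of 9 members. The log2 fold changes of the 9 members tested lay between -0.57 for FHL5 (SE 0.41) and 0.33 for SOX5 (SE 0.53), with an edgeR adjusted p of 0.999 for each. Their median was -0.06 beside -0.05 over all 6410 genes, of which 0% were called (214 at an unadjusted p under 0.05, and 5 by DESeq2). For CREM, at 480 and 284 CPM in WT and 425 and 426 in Ctcf-cKO, the log2 fold change was 0.11 (SE 0.38). For SOX5, 824 and 419 against 397 and 1320 CPM, the spread within Ctcf-cKO was wider than that between genotypes.

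Of the 9 members tested, RFX2 alone lay apart in round cells, at 144 and 136 CPM in WT and 130 and 68.1 in Ctcf-cKO (log2 fold change -0.48, SE 0.50). The value rests on Ctcf-cKO replicate 3, which had 8 counts: it was -0.15 without that mouse and -1.37 without Ctcf-cKO replicate 1. It was also -0.22 without batch correction, -0.80 at equal depth and -1.14 with free RNA subtracted. Thus 1 of 9 members lay below WT, beside 14.4% of all genes. In the smaller round cluster by itself RFX2 was at 144 and 97.2 against 157 and 63.5 CPM, and the genotypes overlapped. In the larger one it was at 174 CPM in WT replicate 2, the only WT mouse with cells there, and at 99.2 and 87.3 CPM in Ctcf-cKO, from 22 and 2 counts. None of the 9 lay above, beside 17.4% of all genes. MYBL1, below the filter, had higher values in both Ctcf-cKO mice, at 0 and 10.7 against 17.3 and 25.5 CPM, from 0, 18, 8 and 3 counts.

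**Figure D4:**
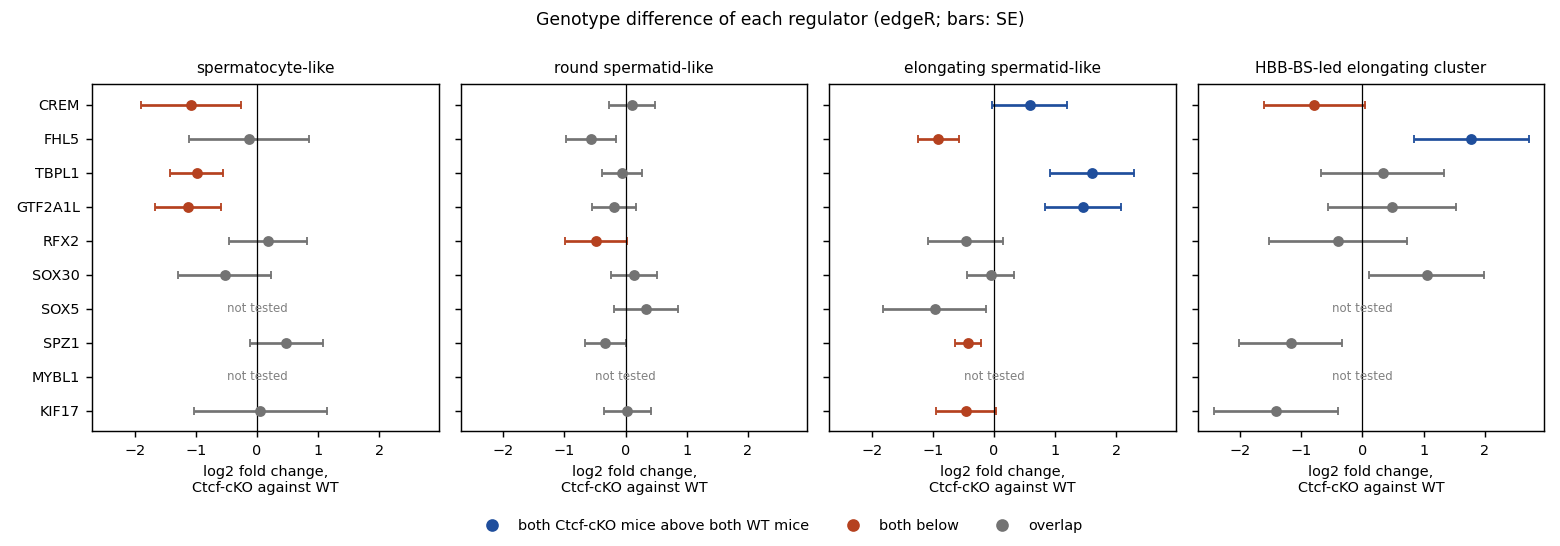
Log2 fold change of each regulator in Ctcf-cKO against WT (horizontal axis) with its SE as bars, in 4 classes. Blue marks members with both Ctcf-cKO mice above both WT mice, red those with both below, and grey those that overlap. TBPL1 stands at -0.99 in spermatocyte-like cells and at 1.60 in elongating cells, and the values in round cells lie between -0.57 and 0.33.

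In elongating spermatid-like cells 3 of the 9 members tested lay below WT in both Ctcf-cKO mice (FHL5, SPZ1 and KIF17), beside 21.9% of all 2420 genes, and 3 lay above (CREM, TBPL1 and GTF2A1L), beside 27.8%. None was called, while 8.18% of all genes were, 6.65% higher and 1.53% lower. FHL5 was at 469 and 440 CPM in WT and 251 and 242 in Ctcf-cKO, a log2 fold change of -0.91 (SE 0.33, adjusted p = 0.101 by edgeR). It passed the threshold only when cells with at least 500 genes were clustered anew (log2 fold change -1.10, adjusted p = 0.0396 by edgeR). The elongating class was then made of other cells, a cluster of 183 led by HBB-BS and another of 26. In that fit 1 of 9 members was called, beside 378 of 3417 genes. The alternatives spanned -0.63 to -2.76, the last after free RNA was subtracted, with edgeR adjusted p from 0.0396 to 1.

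TBPL1 was at 34.2 and 45.3 CPM in WT and 145 and 88.6 in Ctcf-cKO elongating cells, a log2 fold change of 1.60 (SE 0.69, adjusted p = 0.180 by edgeR). GTF2A1L was at 56.5 and 45.3 against 101 and 201 CPM (log2 fold change 1.46, SE 0.62, adjusted p = 0.180). These sums held 7 to 43 counts of either gene, and the value of GTF2A1L was 0.85 without Ctcf-cKO replicate 3. Both directions turned without batch correction, to -2.74 and -1.04, and at the lower clustering resolution the values were 0.26 and 0.66. Among cells with at least 500 genes they were 0.29 and 0.97. In both of these settings no HBB-BS-led cluster was kept apart. At the lower resolution the elongating class was a single cluster of 313 cells led by HBB-BS. Somatic-like cells held 31.5, 89.2, 127 and 153 CPM of TBPL1, in the range of the elongating cells. They held 10.5, 16.2, 46.7 and 110 CPM of GTF2A1L, less than the elongating cells of the same mouse in 4 of 4 mice. The somatic-like class mixed clusters unequally between mice, with 6, 0, 33 and 45 cells in its Leydig cluster.

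CREM was at 68.3 and 84.1 against 88.1 and 145 CPM in elongating cells (log2 fold change 0.58, SE 0.61, adjusted p = 0.703 by edgeR), and its direction turned at the lower resolution (-0.13) and without batch correction (-0.55). SPZ1 was at 2142 and 2239 against 1917 and 1378 CPM (-0.42, SE 0.22, adjusted p = 0.295), turning without batch correction (0.24). KIF17 was at 175 and 155 against 132 and 113 CPM (-0.46, SE 0.49, adjusted p = 0.706), with -1.02 at the lower resolution and 0.0046 at equal depth. The median over the 9 members was -0.42 beside 0.0022 over all genes. At an unadjusted p under 0.05 there were 3 members (FHL5, TBPL1 and GTF2A1L) and 463 genes in all.

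In the HBB-BS-led cluster, in which WT replicate 2 had 5 cells and 21726 counts, none of 8 members and 0% of 1681 genes were called (237 at an unadjusted p under 0.05, and 87 by DESeq2). CREM lay below, at 138 and 184 against 96.5 and 93.8 CPM, beside 15.9% of all genes. FHL5 lay above, at 33.8 and 92.1 against 202 and 164 CPM, beside 25.9%, with a log2 fold change of 1.78 (SE 0.94, adjusted p = 0.507 by edgeR). In the elongating spermatid-like cells FHL5 had the opposite order. The log2 fold changes of SPZ1 and KIF17 in this cluster were -1.99 and -2.32 without WT replicate 2, and turned to 0.20 and 1.90 without WT replicate 1. WT replicate 1 had 4803 CPM of SPZ1 and 519 CPM of KIF17 there, far above the other 3 mice.

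Whether the genotype difference varied with the class was tested in a single fit of the 4 classes with mouse as a block. No member was called among the 9 tested, with a joint adjusted p of 1 for each by edgeR, and 4 of 5610 genes (0.0713%) were. The difference between elongating and spermatocyte-like cells was 2.33 for TBPL1 (SE 1.11, unadjusted p = 0.0366, adjusted 0.888) and 2.33 for GTF2A1L (SE 1.12, unadjusted p = 0.0380, adjusted 0.888), both by edgeR. CREM, TBPL1 and GTF2A1L lay below WT in spermatocyte-like and above WT in elongating cells, 3 of the 8 members tested in both, beside 5.67% of 1800 genes. Between elongating cells and the HBB-BS-led cluster, CREM lay above and then below WT (1 of 8 members, beside 2.59% of 1507 genes) and FHL5 below and then above (1 of 8, beside 3.05%). These classes come from the same mice, and the levels of TBPL1 and GTF2A1L were correlated over them (r = 0.86), so these counts do not come from independent genes.

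Taken over all barcodes of a library, cells or not, 8 of the 9 members with a mean of at least 20 CPM were lower in both Ctcf-cKO mice, as were 48.2% of 6535 genes, and none was higher (25.8% of all genes). TBPL1 was at 682 and 691 CPM in WT and 317 and 314 in Ctcf-cKO, GTF2A1L at 296 and 275 against 170 and 171, and CREM at 338 and 220 against 162 and 137. SPZ1 did not separate, at 1292 and 1401 against 1400 and 1261 CPM. MYBL1, under 20 CPM on average, was at 25.4 and 24.3 against 10.2 and 6.28. In such sums fewer cells of a class and less RNA per cell cannot be told apart, and the shares of somatic-like cells given above move with them.

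Genes that belong to the same programmes were described by 4 lists. Of 30 other transcription regulators of late spermatocytes and spermatids, 12, 21, 8 and 10 were tested in spermatocyte-like, round, elongating and HBB-BS-led cells, and none was called by edgeR or DESeq2 (1, 0, 1 and 0 at an unadjusted p under 0.05). All genes tested in these classes had 0.779, 0, 8.18 and 0% called by edgeR, and 8.52, 3.34, 19.1 and 14.1% at an unadjusted p under 0.05. The median log2 fold changes of the list were -0.43, -0.16, 0.36 and -0.32, beside -0.15, -0.05, 0.0022 and 0.0096 over all genes. The same values over all genes apply to the lists that follow. TCFL5, a factor of pachytene cells, was their highest gene in spermatocyte-like cells, at 562, 354, 340 and 402 CPM (log2 fold change -0.32, SE 0.51). CREB3L4, a relative of CREM, was the highest in the other classes, at 1338, 1026, 965 and 1439 CPM in round cells (-0.08, SE 0.33), with -0.29 (SE 0.30) in elongating and 0.55 (SE 0.74) in HBB-BS-led cells.

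Of 10 post-meiotic genes known to need CREM, 9, 10, 10 and 9 were tested and TNP1 was called in elongating cells, 1 of 10 beside 1.53% of all genes called lower there. DESeq2 called 2 of the 10 in these cells (6.07% of all genes), and 3 had an unadjusted p under 0.05 by edgeR (19.1% of all genes). TNP1, a transition protein that replaces histones, stood at 50649 and 45002 CPM in WT and 29331 and 26706 in Ctcf-cKO and fell by 0.79 on the log2 scale (SE 0.15, adjusted p = 0.00064 by edgeR). Its call was lost without Ctcf-cKO replicate 3 and under 5 other alternatives, with log2 fold changes from -0.50 to -1.03. Without WT replicate 2 the log2 fold change was -1.10. The list's medians were 0.54, -0.35, -0.17 and -0.13. PRM1 was at 5941, 22011, 20563 and 21465 CPM in spermatocyte-like cells (0.54, SE 0.68) and 4287, 32133, 19286 and 4036 in round cells (-0.75, SE 1). By edgeR PRM1 passed the threshold in spermatocyte-like cells without WT replicate 2 (1.89, adjusted p = 0.00265) and in round cells without WT replicate 1 (-1.67, adjusted p = 0.0246). PRM2 had -0.97 (SE 1.21) in the HBB-BS-led cluster.

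Of 14 cilium and axoneme genes of the kind that RFX factors regulate, 13 were in the tables and 8, 12, 6 and 4 were tested, with medians of -0.31, 0.05, 0.77 and 0.96. FOXJ1, a factor for motile cilia, was called higher in elongating cells, 1 of 6 beside 6.65% of all genes. DESeq2 called none of the 6, and 2 had an unadjusted p under 0.05 by edgeR, beside the same 6.07 and 19.1% of all genes. FOXJ1 was at 6.57, 12.9, 74.9 and 96.7 CPM (log2 fold change 3.25, SE 0.95, adjusted p = 0.0291 by edgeR), from 5, 2, 17 and 12 counts. The call was lost when any 1 of the 4 mice was left out and under 6 other alternatives, with log2 fold changes from 0.021 to 3.38. RSPH1, a radial spoke protein, was at 2686, 2937, 2231 and 1300 CPM in spermatocyte-like cells (-0.66, SE 0.48) and had -0.03 (SE 0.35) in round cells. IFT172, of intraflagellar transport, was at 1174, 967, 368 and 422 CPM in the HBB-BS-led cluster (-1.55, SE 0.65, adjusted p = 0.351 by edgeR), and passed the threshold without WT replicate 2 (-2.06, adjusted p = 0.0075).

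Of 10 piRNA and pachytene genes driven by MYBL1, 9, 6, 1 and 1 were tested and none was called by edgeR or DESeq2 (1, 0, 0 and 0 at an unadjusted p under 0.05, beside 8.52% of all genes in spermatocyte-like cells). In spermatocyte-like cells 7 of 9 had a log2 fold change below 0, with a median of -0.72 beside -0.15 over all genes. MAEL, of piRNA production, was the highest of them, at 2665, 1727, 1492 and 1938 CPM (-0.39, SE 0.44) in spermatocyte-like cells, with 0.03 (SE 0.32) in round, 0.34 (SE 0.26) in elongating and 1.18 (SE 0.65) in HBB-BS-led cells.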

How the data were processed

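Testis cells of 4 mice were barcoded on the ddSEQ platform and 3′ libraries sequenced. The authors mapped reads to GRCm38 (mouse) and deposited raw counts, whole numbers for each barcode and symbol that were not normalized. How reads of 1 molecule were merged is not given in the sources used here. Of the values above 0, 84.4 to 90.3% were 1 to 4, and the value 4 made up 11.5, 11.5, 30.0 and 23.1% of them in the 2 WT and then the 2 Ctcf-cKO libraries, against 2.8 to 3.5% for the value 5. A molecule may thus give several counts, and not equally in each library. Per library 21 to 23 symbols had become dates, and they hold at most 0.245% of the counts.

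Cells had 200 to 7000 genes, at most 10% mitochondrial counts and 3 times the median total of the barcodes ranked 401 to 1000. No doublet caller was run. Cells were normalized, reduced (2000 variable genes without the members, 15 components) and clustered (resolution 0.9) in Seurat 5.3.0, with an own implementation of Harmony (theta 2, sigma 0.1). A cluster was named by at least 5 markers of a list, each higher by 0.5 or more (log2) than in the other cells and found in 10% or more of its cells.

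Counts summed per mouse and class (at least 5 cells) were tested in edgeR 4.0.16 under R 4.3.3 with TMM scaling, filterByExpr and a Benjamini-Hochberg adjusted p of 0.05. The SE was taken as the absolute log2 fold change over the root of the F statistic. The sums held 21726 to 1679704 counts per mouse and class, which with 2 mice per genotype limits the precision. The steps were tested on simulated data.

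The 10 members, the gene lists and the tests were chosen with earlier results of these data known. Besides the members, the text names CTCF, per list and class up to 3 genes past the threshold or else the one with the highest mean CPM, and the 3 genes most like each member. TEKT3, FAM193A and TEX46 led the unnamed cluster. Genes came from GENCODE annotation and promoters from RefSeq, both of GRCm38, and CREM and MYBL1 promoters were not used here. Alternatives were DESeq2 1.42.0, library totals, no filter, each mouse left out, resolution 0.5, no batch correction, at least 500 genes per cell, equal depth and free RNA subtracted. Counts divided by 4 and rounded up, and both elongating clusters pooled, were added after seeing the data.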

Additional observations from a re-analysis of the deposited data

Results flagged for a closer look

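The genotypes stood in opposite order in 2 classes, with both Ctcf-cKO mice on one side of both WT mice in each, for 4 of the members. The order below WT in spermatocyte-like and above it in elongating cells was that of 3 of 8 members and 5.67% of 1800 genes, and the orders between elongating and HBB-BS-led cells were those of 1 of 8 members each and 2.59 and 3.05% of 1507 genes. TBPL1 and GTF2A1L were lower in Ctcf-cKO spermatocyte-like cells and higher in Ctcf-cKO elongating spermatid-like cells, and their log2 fold changes differed by 2.59 each between the separate fits. CREM had the same order in these classes, with a difference of 1.66. In the HBB-BS-led cluster CREM was lower again, a difference of -1.37 from the elongating cells. FHL5 was lower in elongating cells and higher in the HBB-BS-led cluster, a difference of 2.69. The joint test of genotype by class called none of the 4 (edgeR adjusted p = 1 each), and the difference between elongating and spermatocyte-like cells had an adjusted p of 0.888 for TBPL1 and GTF2A1L and 0.913 for CREM in that fit. The direction in elongating cells turned without batch correction for TBPL1, GTF2A1L and CREM. Groups of 2 mice are too small to mark a single mouse as apart.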

How the results depend on the processing

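No paired analysis was possible because neither the labels nor the methods pair a WT mouse with a Ctcf-cKO mouse. With all 4 mice MYBL1 passed the filter on low counts in no class, and SOX5 not in spermatocyte-like and HBB-BS-led cells. With a mouse left out, some fits tested MYBL1 in round cells and SOX5 in both of those classes, and called neither. A value is missing for the HBB-BS-led cluster at resolution 0.5, without batch correction and at 500 genes, and for spermatocyte-like cells without batch correction, where WT replicate 1 had under 5 cells. Subtracting free RNA, limited to 90% of a sum, left TBPL1 and GTF2A1L untested in elongating cells. With a mouse left out, the lone mouse is assumed to vary like the others. The cause of the changes below was not tested.

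The 29 calls in spermatocyte-like cells became 85 with DESeq2, 52 with library totals, 77 with no filter, 4 at 500 genes and 0 with free RNA subtracted, and 8 to 149 with a mouse left out (59 and 53 without WT replicates 1 and 2, 8 and 149 without Ctcf-cKO replicates 1 and 3). The 0 calls in round cells became 5, 1 and 41 with DESeq2, library totals and no filter, and 0 to 149 with a mouse left out (15 and 149 without WT replicate 1 and Ctcf-cKO replicate 3). The 198 calls in elongating cells became 369 at resolution 0.5, 0 without batch correction, 378 at 500 genes, 97 at equal depth, 0 with free RNA subtracted, 97 with counts divided by 4 and 384 with both clusters pooled, and 87 to 231 with a mouse left out (87 and 106 without WT replicate 1 and Ctcf-cKO replicate 1). The 0 calls in the HBB-BS-led cluster became 87 with DESeq2, 78 with no filter, 21 at equal depth and 33 with counts divided by 4, and 8 to 454 with a mouse left out (454 without WT replicate 2 and at most 39 otherwise). The 4 calls of genotype by class became 0 with no filter and 0 to 181 with a mouse left out (181 without WT replicate 2, where SPZ1 was called at -2.54 between elongating and spermatocyte-like cells). In elongating cells 1 member (FHL5) was called at 500 genes, and in the HBB-BS-led cluster 0 to 2 with a mouse left out.

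Of 385 alternative log2 fold changes of members, 335 kept their direction and 50 turned. With no filter those that turned, list genes included, were CREM (-0.053), SOX30 (-0.026), KIF17 (-0.14) and MAEL (-0.13) in round cells and RFX2 (-0.076) and KIF17 (-0.27) in spermatocyte-like cells. At resolution 0.5 CREM (-0.13) and SOX5 (0.36) turned in elongating cells. Without batch correction CREM (-0.55), TBPL1 (-2.74), GTF2A1L (-1.04), SPZ1 (0.24) and MAEL (-0.33) turned in elongating and SPZ1 (0.061), PRM1 (0.34), RSPH1 (0.11) and MAEL (-0.058) in round cells. With library totals TBPL1 (0.041), CREB3L4 (0.027) and RSPH1 (0.081) turned in round cells and SOX30 (0.045) in elongating cells. With free RNA subtracted TBPL1 (0.13) and RSPH1 (0.18) turned in round, RFX2 (-0.0052) and PRM1 (-12.79) in spermatocyte-like and SOX30 (0.17) in elongating cells. With counts divided by 4 TBPL1 (0.047), CREB3L4 (0.0038) and RSPH1 (0.10) turned in round and RFX2 (0.17) and SOX30 (0.12) in elongating cells. At equal depth GTF2A1L in round (0.09) and KIF17 in elongating cells (0.0046) turned, with both clusters pooled SOX30 (0.037), and at 500 genes KIF17 in spermatocyte-like cells (-0.56).

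With a mouse left out, values turned in these ranges. In round cells they were -0.14 to 0.28 for CREM, -0.17 to 0.23 for SOX30, -0.63 to 0.81 for SOX5, -0.15 to 0.12 for KIF17, -2.62 to 1.56 for PRM1, -0.35 to 0.23 for RSPH1 and -0.19 to 0.074 for MAEL. In spermatocyte-like cells they were -0.89 to 1.61 for FHL5, -0.30 to 0.45 for RFX2, -0.98 to 0.11 for SOX30, -0.20 to 1.62 for SPZ1, -0.97 to 1.16 for KIF17 and -0.21 to 1.89 for PRM1. In elongating cells they were -1.21 to 0.33 for RFX2, -0.44 to 0.24 for SOX30 and -0.71 to 0.013 for CREB3L4. In the HBB-BS-led cluster they were -0.70 to 1.67 for TBPL1, -0.47 to 1.40 for GTF2A1L, -1.24 to 0.53 for RFX2, -1.99 to 0.20 for SPZ1, -2.32 to 1.90 for KIF17, -0.0041 to 0.93 for CREB3L4 and -1.71 to 0.075 for PRM2. Between elongating and spermatocyte-like cells they were -1.66 to 0.15 for RFX2, -0.34 to 0.50 for SOX30, -0.028 to 3.83 for SOX5 and -2.05 to 0.42 for KIF17. Other values kept their direction but moved by over 1.5 times when a Ctcf-cKO mouse was left out. Without replicate 1 and without replicate 3 of Ctcf-cKO they were 0.91 and 0.15 for CREM, -0.71 and -0.27 for SPZ1 and 0.56 and 0.024 for MAEL in elongating cells, -0.37 and -0.96 for FHL5 in round cells, -1.49 and -0.19 for RSPH1 in spermatocyte-like cells, and 4.06 and 0.27 for CREM and 3.09 and 1.38 for GTF2A1L between elongating and spermatocyte-like cells. Without replicate 1 and without replicate 2 of WT they were -0.33 and -0.75 for KIF17 in elongating cells, -0.085 and -0.54 for TCFL5 and -0.18 and -0.59 for MAEL in spermatocyte-like cells, and -0.99 and -2.06 for IFT172 in the HBB-BS-led cluster. The class with the highest mean was the same for 10 of 10 members at resolution 0.5 and at 500 genes, and for 9 of 10 without batch correction, where TBPL1 was highest in round cells.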
